A study of Mus musculus with 8 samples.

Results

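Transcripts of integrins and laminins were read in mouse embryos at E9.5 (embryonic day 9.5), in dissected posterior second heart field (pSHF) tissue. The pSHF is mesenchyme that lies dorsal to the heart and gives rise to the atrial septum. The members were all array probes whose gene name in the scanner files was an integrin α chain (Itga), an integrin β chain (Itgb) or a laminin α, β or γ chain (Lama, Lamb, Lamc), selected by name alone and not by any measured value. They comprised 96 of the 43379 spots other than controls, which made 78 of 41174 probes and 35 of 27827 gene names: 17 integrin α genes with 42 probes, 8 integrin β genes with 17 probes and 10 laminin genes with 19 probes. All 8 samples were microdissected pSHF at E9.5: 4 from embryos heterozygous for a Tbx5 mutation (genotype Tbx5-/+ in the labels) and 4 from wild-type embryos, with no treatment that set the groups apart. The mice were kept on a mixed background, the mothers were given gonadotropins before mating to enlarge litters, and the dissected tissue kept the foregut that adjoins it. The labels describe each sample as a pool of RNA without the number of embryos, and number the samples 1, 5, 6 and 7 in both groups. Numbers 1 and 5 of each group were on slide 1 and numbers 6 and 7 on slide 2. Nothing in the labels says whether the pools share litters, so p-values here measure the spread between these 4 pools per group.

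Integrins are receptors of the cell surface made of 1 α and 1 β chain, and they bind proteins of the extracellular matrix on the outside and, through talin and kindlin, the actin cytoskeleton on the inside. Laminins are trimers of 1 α, 1 β and 1 γ chain that build the sheet-like basement membrane under epithelia and around endothelium and muscle. The α chain of the integrin largely sets which ligand is bound: Itga3 and Itga6 pair with Itgb1 (Itga6 also with Itgb4) to bind laminins, Itga5 and Itgav bind fibronectin and related proteins, and Itga4 and Itga9 bind fibronectin splice forms, Vcam1 or tenascin. Fibronectin and its receptor Itga5 are known to be required in the mesoderm of the early heart region.

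Levels are log2 values after variance stabilization (VSN), which brings the arrays to a common scale. They are comparable between arrays for a probe but not between probes. Probes are 60 bases long and each reads a short stretch of its transcript, so 2 probes of a gene can read different transcript forms. The Lama1 probe A_51_P188108 is shown because its values separated the groups, and because it lies across an exon junction (chr17:68167016-68167978, plus strand, mm9 as in the scanner files), so that it reads spliced RNA. The Lama4 probes A_52_P7554 (chr10:38825032-38825822, plus strand, mm9) and A_51_P212420 (chr10:38825794-38825853, plus strand, mm9) are shown because they share 29 bases, which are in capitals, and are thus not independent readings of the gene. The same holds for Itgb4, whose probes A_52_P143287 and A_51_P408382 share 50 bases.
Lama1 A_51_P188108: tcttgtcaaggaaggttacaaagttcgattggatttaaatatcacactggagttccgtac
Lama4 A_52_P7554: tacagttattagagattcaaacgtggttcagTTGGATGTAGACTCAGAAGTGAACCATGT
Lama4 A_51_P212420: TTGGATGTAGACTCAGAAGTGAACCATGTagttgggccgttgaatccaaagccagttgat

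Promoter sequences from RefSeq (GRCm38.p6) were matched by symbol for 22 of the 35 genes (25 promoters). The 250 bases before the start site are shown for Itga4, Itgb1 and Lamb2, the genes with an entry whose values separated the groups as described below, with CG dinucleotides in capitals. The windows were chr2:79255176-79255425, chr8:128685404-128685653 and chr9:108479612-108479861, all on the plus strand of GRCm38.p6. They held 6, 21 and 3 CG dinucleotides, and the median over all RefSeq promoters was 6.
Itga4: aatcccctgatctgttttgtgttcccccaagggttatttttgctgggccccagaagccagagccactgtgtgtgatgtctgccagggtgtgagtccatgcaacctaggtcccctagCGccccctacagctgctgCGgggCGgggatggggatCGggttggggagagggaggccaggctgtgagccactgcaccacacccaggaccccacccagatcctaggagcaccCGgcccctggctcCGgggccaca
Itgb1: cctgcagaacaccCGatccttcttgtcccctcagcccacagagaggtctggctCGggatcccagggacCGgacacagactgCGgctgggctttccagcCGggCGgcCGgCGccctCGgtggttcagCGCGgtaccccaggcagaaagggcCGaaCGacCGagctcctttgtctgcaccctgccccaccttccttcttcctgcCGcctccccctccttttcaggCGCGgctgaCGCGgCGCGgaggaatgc
Lamb2: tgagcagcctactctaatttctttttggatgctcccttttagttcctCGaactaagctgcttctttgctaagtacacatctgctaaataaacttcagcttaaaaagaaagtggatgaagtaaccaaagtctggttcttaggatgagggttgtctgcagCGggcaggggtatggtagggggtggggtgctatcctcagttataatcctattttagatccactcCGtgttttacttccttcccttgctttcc
In the 300-base windows of the table the T-box core AGGTGT (either strand) occurred in 4 of the 25 member promoters, of Itga3, Itgb6 and Lamb3, and in 13.7% of all 32851 promoters. The GATA motif AGATAA (either strand) occurred in 1 of the 25, of Itgax, and in 11.2% of all. The windows of Itga4, Itgb1 and Lamb2 held neither string of letters.

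The scanner software marks a spot that is well above its background, and a probe was tested when it was so marked on all 4 arrays of at least 1 group. This left 32 member probes of 22 genes: 13 probes of 9 integrin α genes, 8 of 5 integrin β genes and 11 of 8 laminin genes. Of the 46 member probes not tested, 23 were well above background on no array, 18 on 1 to 3 arrays and 5 on 4 or 5 arrays. The 13 genes without a probe tested included the integrin chains of leukocytes: Itgam and Itgax were marked on 0 of 8 arrays by either probe, Itgb2 on 2, Itgal on 2 or 3 and Itgae on 0 or 2. They also included the collagen-binding chains Itga1 (0 to 5 arrays over 3 probes), Itga2 (0) and Itga10 (2), the muscle chain Itga7 (0 or 3), the TGF-β-activating chains Itgb6 and Itgb8 (0 or 1), and the laminin chains Lama3 (1 or 4) and Lamc3 (0 or 2). Among genes with a probe tested, Itga4 had 5 other probes that were not (0 to 4 arrays) and Itgav likewise 5 (0 to 2 arrays), so the level of each rests on 1 probe. Itga2b, Lamb3 and the Lama2 probe A_52_P652859 were well above background on all 4 wild-type arrays and on 2 of the 4 Tbx5-/+ arrays. These 3 passed through the wild-type group alone. Where the probes of a gene are counted below, the probes tested are meant. The gene of the laminin β1 chain stands in the files under its older name Lamb1-1, outside the naming rule, and its values are given with the laminins.

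**Figure D1:**
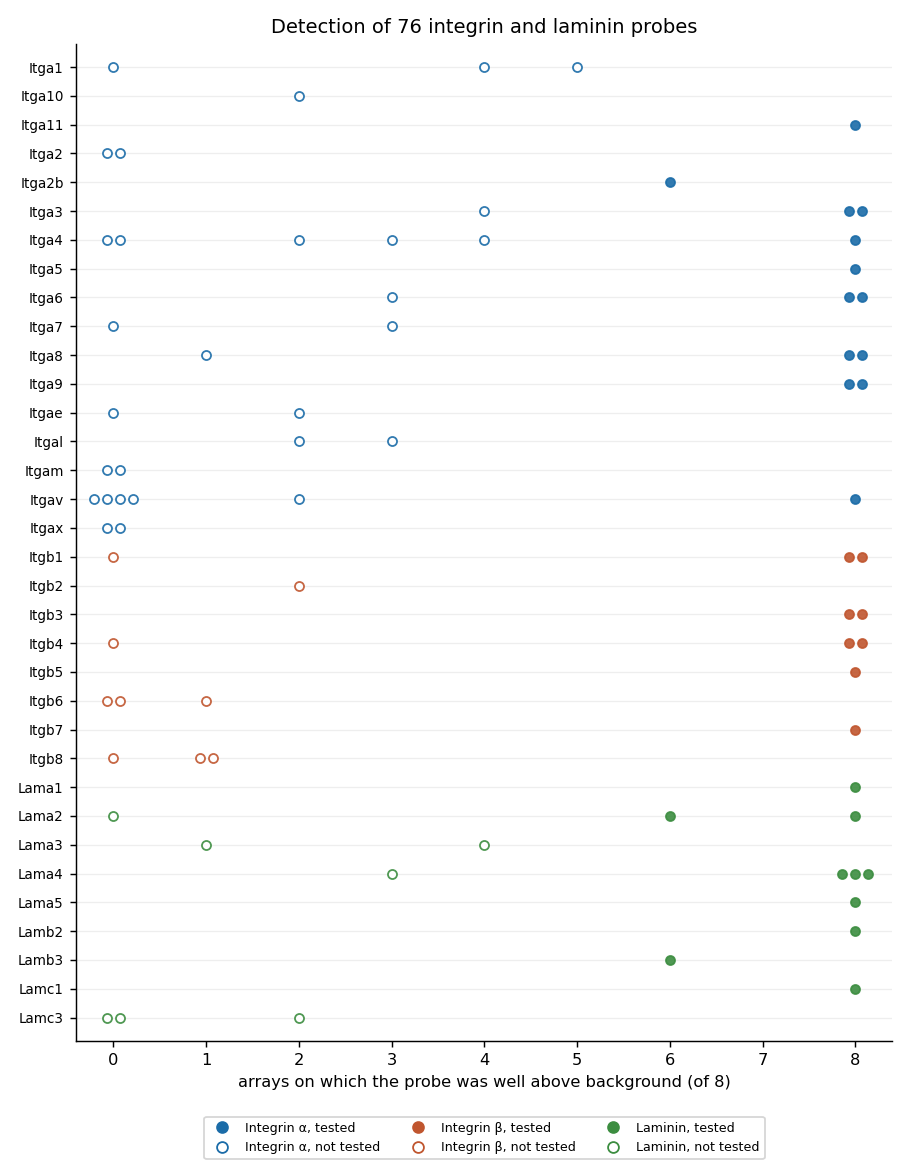
Number of arrays (of 8, horizontal axis) on which each of 76 integrin and laminin probes was well above background, by gene (1 gene is not shown). Filled points are the 31 probes tested and open points the 45 not tested, set side by side where probes of a gene had the same number; most tested probes were detected on all 8 arrays, and no probe that was left out on more than 5.

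Of the 96 member spots, 45 to 56 were well above background on the Tbx5-/+ arrays and 52 to 72 on the wild-type arrays, and over all spots at most 52.8% and 63.6% were. No spot was saturated. Of the targeted gene, the brighter probe (A_52_P523712) read 9.01, 9.73, 9.16 and 8.62 in Tbx5-/+ 1, 5, 6 and 7 and 11.47, 11.56, 10.42 and 11.54 in wild-type 1, 5, 6 and 7, without overlap, whereas the dimmer probe (A_51_P469338) differed by -0.15 and overlapped. The labels do not say which part of Tbx5 the mutation removes. All 7 markers of pSHF mesenchyme were tested, and their mean level was 9.05 to 9.71 in Tbx5-/+ and 9.91 to 10.81 in wild-type pools. Tbx5 is itself on that list, and without it (a choice made after seeing the data) the means were 9.04 to 9.71 and 9.82 to 10.70. Of the others Isl1 (0.35) and Wnt2 (0.06) were not lower in Tbx5-/+, unlike Foxf1a (-1.59) and Gata4 (-1.37). Foxf1a was marked above background on 3 of the 4 Tbx5-/+ arrays, Gata4 on 2 and the brighter Osr1 probe on 3. These probes thus passed the filter through the wild-type group alone, and they enter the mean. The 7 endothelium markers, all tested, averaged 9.98 to 10.59 and 10.66 to 10.92, also without overlap. Kdr (-1.12), Tie1 (-0.95) and Pecam1 (-0.89) carried that mean, whereas Emcn differed by 0.21, Esam by 0.01 and the brighter Cdh5 probe by 0.14. The foregut endoderm markers (7 of 7 tested) averaged 11.76 to 12.22 and 11.65 to 12.66, and cardiomyocyte markers (6 of 6) 13.86 to 15.09 and 14.50 to 15.14, which overlapped. Integrins and laminins are made in all of these tissues. Fewer cells of a type and less RNA per cell cannot be told apart in dissected tissue, and the part of these marker shifts in the differences below was not tested.

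The comparison asked which of these genes depend on the Tbx5 allele in the pSHF. The lowest relative to wild-type was Itga4, by 3.17-fold, followed by Itga6 (1 of its 2 probes tested), Lamb2, Lama1 and Itgb1, by 1.86- to 2.01-fold. None passed limma with adjustment over 20028 probes at a threshold of 0.05: 0 member probes were called, as were 0% of all probes, and the smallest adjusted p of a member was 0.0920, for Itga4. At an unadjusted p under 0.05, 6 of the 32 member probes were lower in Tbx5-/+ (18.5% of all probes were) and 0 were higher (3.38% of all). Among the 29 member probes well above background on all 8 arrays (without Itga2b), 5 were lower (16.8% of all such probes). The groups did not overlap for 5 member probes, with each Tbx5-/+ pool below each wild-type pool (8.98% of all probes), and 0 were apart in the other direction (0.744%). The difference was below 0 for 28 of the 32 (65.4% of all), with a median of -0.35 on the log2 scale, against -0.19 over all probes tested. That background shift of -0.19 depends on the scaling between arrays, and a probe's own difference is best read against it.

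Lower probes made up 84.6% of all those with an unadjusted p under 0.05 under VSN, and 35.6%, 50.2% and 29.0% of them after 75th percentile scaling, quantile normalization and centring on the array medians. Same-numbered pools of the groups deviated together for numbers 1, 5 and 6. Tbx5-/+ 7 correlated by 0.14 with wild-type 7 and by 0.37 with wild-type 6. The labels do not state a pairing, but limma was also run with the number as a replicate block. With it 3 member probes passed, all lower: Itga4 (adjusted p = 0.0336), Itga6 A_52_P81270 (adjusted p = 0.0336) and Lama1 (adjusted p = 0.0359). Over all probes, 10.7% were called lower and 0.379% higher in that fit. With the slide as a block, 0 members were called, as were 0% of all probes. With arrays weighted by their quality in limma, 13 member probes of 12 genes were called, all lower, but so were 33.4% of all probes, and 16.5% were called higher.

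**Figure D2:**
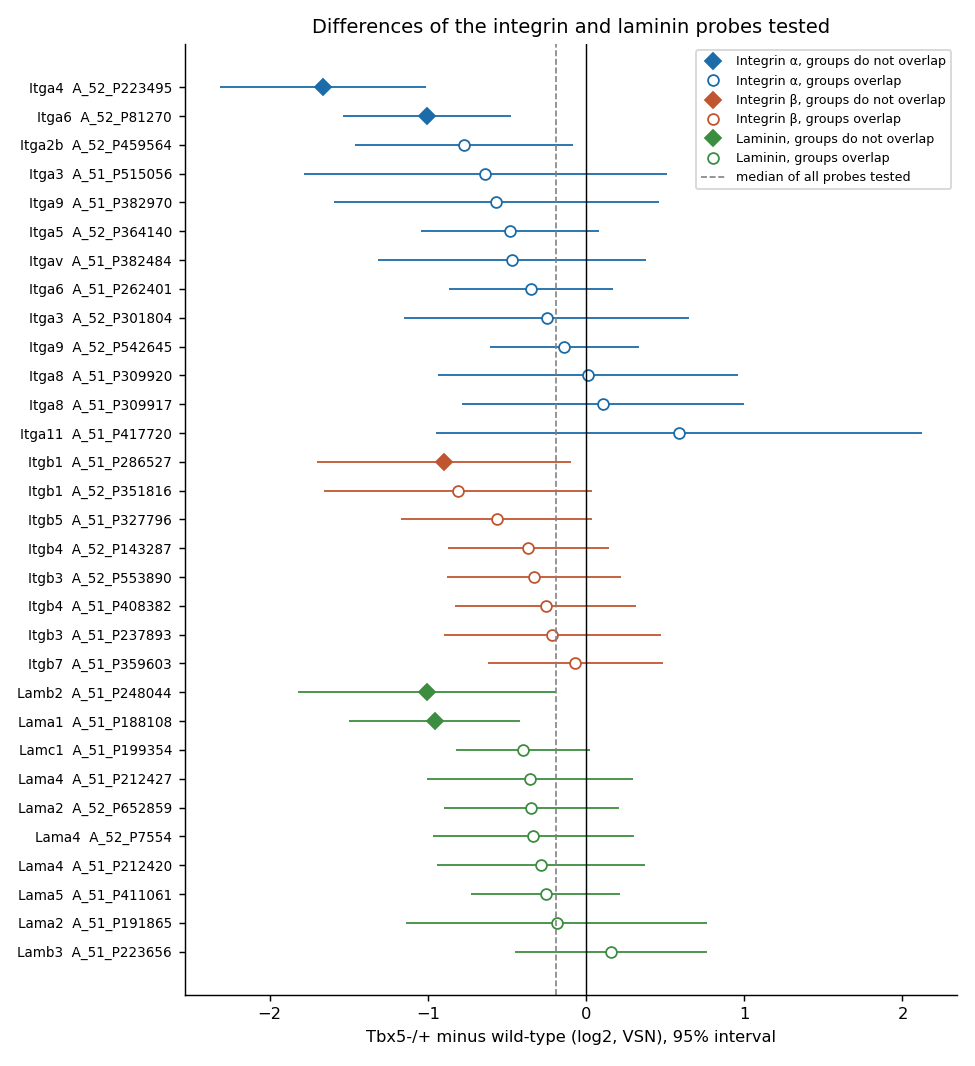
Difference in log2 level, Tbx5-/+ minus wild-type, with its 95% interval from limma, for 31 of the 32 member probes tested, in the order integrin α, integrin β, laminin. Filled diamonds are the 5 probes whose groups did not overlap, open circles the others, and the dashed line is the median of all probes tested (-0.19); Itga4 (-1.66) lay farthest to the left and Itga11 (0.59) farthest to the right.

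Among the integrin α chains, Itga4 stood lowest. Its probe A_52_P223495 (chr2:79170690-79170749, mm9) read 7.53, 6.84, 7.83 and 7.06 in Tbx5-/+ 1, 5, 6 and 7 and 8.35, 8.99, 9.22 and 9.36 in wild-type 1, 5, 6 and 7. Every Tbx5-/+ pool was below every wild-type pool. The means were 7.32 ± 0.45 and 8.98 ± 0.45 (SD, n = 4 each), a difference of -1.66 ± 0.29 (SE; 95% interval -2.32 to -1.01; limma adjusted p = 0.0920; exact two-sided permutation p = 0.0286, the smallest that 4 against 4 allows). Under 5 scalings it ranged from -1.98 to -1.18. The 5 Itga4 probes not tested all overlapped between the groups. A_52_P63892, marked above background on 4 arrays, had means of 6.57 in Tbx5-/+ and 6.32 in wild-type. For A_51_P400884, A_52_P373392, A_52_P526816 and A_52_P545336 they were 5.56, 5.12, 5.60 and 5.44 in Tbx5-/+ and 5.97, 5.73, 5.32 and 5.05 in wild-type. Itga4 pairs with Itgb1 or Itgb7 and is known for binding Vcam1 and fibronectin. It passed limma without Tbx5-/+ 1 (-1.73, adjusted p = 0.0139), a fit that called 12.2% of all probes lower, and without wild-type 1 (-1.87, adjusted p = 0.0256), a fit that called 1.06% lower. It passed as well when only the more variable probes with a gene name were kept (adjusted p = 0.0329), with 3.2% of those probes called lower.

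Itga6, the laminin receptor chain, gave different values by probe. A_52_P81270 (chr2:71694194-71694253, mm9) read 10.89, 10.20, 9.94 and 10.52 in Tbx5-/+ 1, 5, 6 and 7 and 11.70, 11.21, 11.36 and 11.30 in the wild-type pools, with no overlap. The difference was -1.01 ± 0.24 (SE; 95% interval -1.54 to -0.48; adjusted p = 0.0981 by limma; exact permutation p = 0.0286). The brighter probe A_51_P262401 (chr2:71695973-71696032, mm9), which lies farther toward the 3′ end of the transcript, read 12.50, 12.60, 12.13 and 12.83 in Tbx5-/+ and 13.31, 12.62, 12.92 and 12.61 in wild-type. Here the groups overlapped, with Tbx5-/+ 7 above 2 wild-type pools. Its difference was -0.35 ± 0.23 (SE; adjusted p = 0.364 by limma), and it turned to 0.01 after 75th percentile scaling. The difference between the probes was -0.66 (-0.67 to -0.49 under 3 other scalings) and had an exact permutation p of 0.0571 (0.429 after Benjamini-Hochberg over the 10 pairs of probes of 1 gene compared). The remaining Itga6 probe, A_52_P324934, was marked above background in 0 Tbx5-/+ pools and in 3 wild-type pools and was not tested. Its values were at most 6.28 in Tbx5-/+ and at least 6.36 in wild-type. They add no support, since no Tbx5-/+ pool was marked above background.

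The fibronectin receptor chain Itga5 read 9.11, 9.67, 8.51 and 9.31 in Tbx5-/+ and 9.57, 9.62, 9.49 and 9.84 in wild-type, a difference of -0.48 ± 0.25 (SE; 95% interval -1.04 to 0.08; limma adjusted p = 0.271). Tbx5-/+ 5 lay within the wild-type range and the other Tbx5-/+ pools below it. Itgav, the chain of the vitronectin receptors, read 9.94, 10.23, 8.47 and 10.36 in Tbx5-/+ and 10.05, 10.39, 10.33 and 10.11 in wild-type. Its difference of -0.47 ± 0.38 (SE; limma adjusted p = 0.452) came mainly from Tbx5-/+ 6, which was far below the rest, while Tbx5-/+ 5 and 7 lay within the wild-type range. Itga2b, the platelet integrin chain, read 7.25, 7.29, 6.03 and 6.44 in Tbx5-/+ and 7.47, 7.92, 7.26 and 7.45 in wild-type, with Tbx5-/+ 5 just above the lowest wild-type pool (difference -0.77 ± 0.31 SE; limma adjusted p = 0.208). Of 6 megakaryocyte and platelet markers 3 were tested, with a mean level of 7.39 to 8.65 in Tbx5-/+ and 6.99 to 8.54 in wild-type pools.

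The other α chains overlapped between the groups. Itga9, the tenascin receptor chain, differed by -0.57 by probe A_51_P382970, lower within each of the 4 embryo numbers, and by -0.14 by probe A_52_P542645, which was above 0 under the quantile, 75th percentile and centred scalings. Itga3, a laminin receptor chain of epithelia, differed by -0.64 and -0.25 by its 2 probes tested, the latter above 0 under the same scalings. Both Itga3 probes tested read highest of all 8 arrays in Tbx5-/+ 1 (9.90 and 10.45) and lowest in Tbx5-/+ 6 (6.96 and 8.31), so that the spread within the mutant group (SD 1.21 and 0.90) exceeded the difference. The dim Itga3 probe A_51_P230405, well above background on 4 arrays and not tested, read highest in Tbx5-/+ 6 (7.17). Without Tbx5-/+ 1 the difference of Itga3 A_51_P515056 became -1.17 and passed (limma adjusted p = 0.0437). That fit called 12.2% of all probes lower and 7.03% higher, and it left out the pool with the highest value of this probe.

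Higher values in Tbx5-/+ were few. Itga11, a collagen receptor chain of mesenchyme, read 9.21, 11.60, 11.82 and 11.42 in Tbx5-/+ 1, 5, 6 and 7 and 8.70, 11.52, 10.67 and 10.80 in wild-type 1, 5, 6 and 7. Both pools numbered 1 were low against the others of their group, and within each number the Tbx5-/+ pool was the higher (by 0.51, 0.08, 1.15 and 0.62). The difference was 0.59 ± 0.69 (SE; 95% interval -0.95 to 2.13; limma adjusted p = 0.608, and 0.0954 with the replicate block), and it stayed above 0 under all 5 scalings but was 0.01 without wild-type 1 and 1.19 without Tbx5-/+ 1. Itga8, a mesenchymal receptor for nephronectin, read 10.26, 12.06, 12.30 and 12.06 in Tbx5-/+ and 11.13, 11.78, 11.78 and 11.93 in wild-type by its brighter probe A_51_P309920, and 10.05, 11.81, 11.90 and 11.70 against 10.79, 11.35, 11.30 and 11.60 by A_51_P309917. In numbers 5, 6 and 7 the Tbx5-/+ pool was above its wild-type partner by both probes, and in number 1 it was below by 0.87 and 0.74. The differences were 0.01 ± 0.42 and 0.11 ± 0.40 (SE; limma adjusted p = 0.987 and 0.887), and without Tbx5-/+ 1 they were 0.48 and 0.54 (adjusted p = 0.130 and 0.0906).

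**Figure D3:**
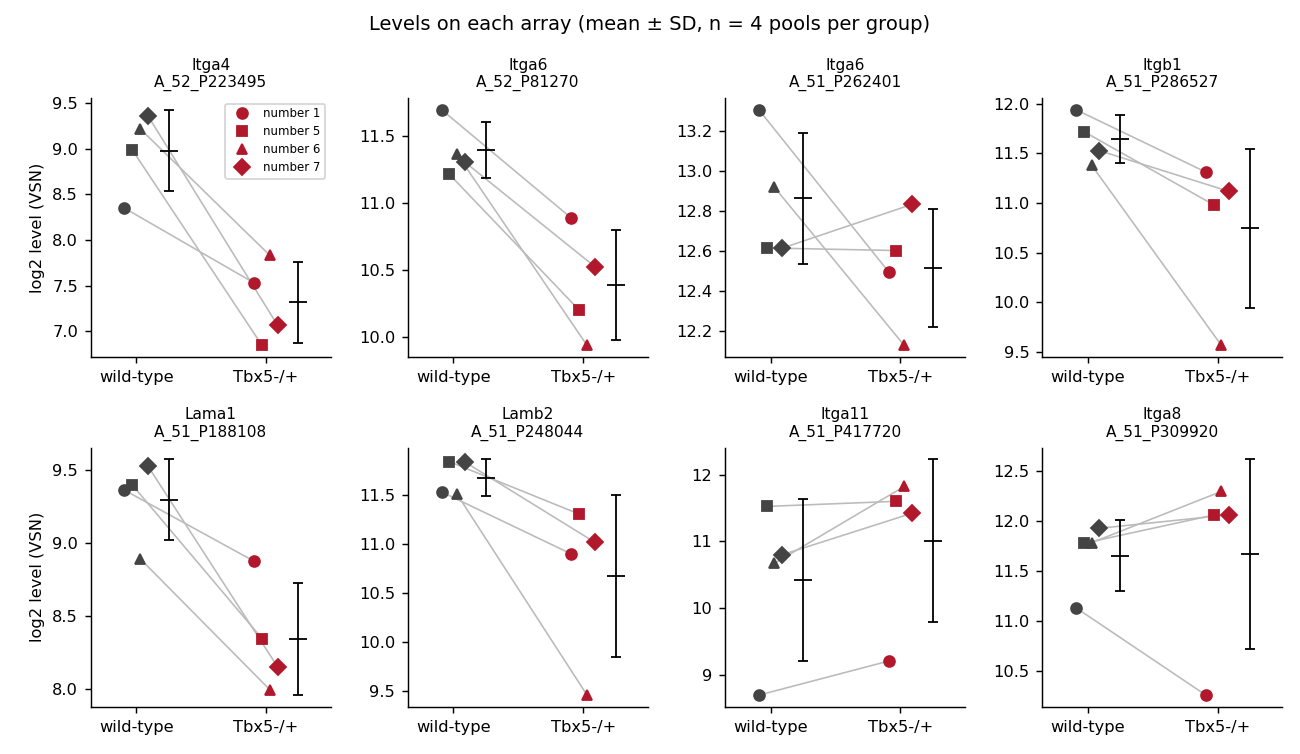
Log2 level (vertical axis) of 8 member probes on each array, wild-type on the left and Tbx5-/+ on the right, with lines joining pools of the same embryo number and bars giving the mean ± SD (n = 4). The groups are apart for Itga4, Itga6 A_52_P81270, Itgb1, Lama1 and Lamb2 and overlap for Itga6 A_51_P262401, Itga11 and Itga8, the last 2 with low values in the pools numbered 1.

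All 8 integrin β probes tested had a difference below 0 under VSN (65.4% of all probes did), and 1 of them did not overlap (8.98% of all probes, lower). Of the 8, 4 (of Itgb3, Itgb4 and Itgb7) crossed 0 under another scaling. Itgb1 is the partner of most α chains named above. Its probe A_51_P286527 (chr8:131256492-131256551, mm9), printed on 10 spots of each array of which 8 to 10 were used, read 11.31, 10.98, 9.57 and 11.12 in Tbx5-/+ and 11.94, 11.72, 11.38 and 11.53 in wild-type. Tbx5-/+ 6 was the lowest by far, and the other 3 lay closer to the wild-type range. The difference was -0.90 ± 0.36 (SE; 95% interval -1.70 to -0.09; limma adjusted p = 0.208, and 0.0575 with the replicate block; exact permutation p = 0.0286), and -0.51 without Tbx5-/+ 6. A second Itgb1 probe, A_52_P351816, read 9.36, 9.04, 7.61 and 8.74 in Tbx5-/+ and 10.16, 9.35, 9.19 and 9.28 in wild-type. It differed by -0.81 with Tbx5-/+ 1 within the wild-type range, and the 2 probes differed from each other by 0.09 (exact permutation p = 0.571).

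Itgb5, a partner of Itgav, read 13.81, 13.95, 12.81 and 13.78 in Tbx5-/+ and 14.18, 14.33, 13.86 and 14.24 in wild-type. Tbx5-/+ 5 lay just above the lowest wild-type pool, and the difference was -0.57 ± 0.27 (SE; 95% interval -1.17 to 0.04; limma adjusted p = 0.244). Itgb4, the chain of hemidesmosomes, differed by -0.26 and -0.36 by its overlapping probes. Itgb3, the other classical partner of Itgav and the partner of Itga2b, differed by -0.21 and -0.33, and Itgb7, a partner of Itga4, by -0.07.

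Of the laminin α chains, Lama1, a chain of early embryonic basement membranes, was the lower by most. Probe A_51_P188108, whose sequence is given above, read 8.87, 8.34, 7.99 and 8.15 in Tbx5-/+ 1, 5, 6 and 7 and 9.36, 9.40, 8.89 and 9.53 in wild-type. The highest mutant pool, number 1, lay only just below the lowest wild-type pool, number 6, and the others were clearly lower. The means were 8.34 ± 0.38 and 9.30 ± 0.28 (SD, n = 4 each), a difference of -0.96 ± 0.24 (SE; 95% interval -1.50 to -0.42; limma adjusted p = 0.109; exact permutation p = 0.0286). It lay between -0.99 and -0.57 under the 5 scalings. Lama4, the chain of vascular basement membranes, read 10.47, 11.27, 10.17 and 10.81 in Tbx5-/+ and 10.39, 11.38, 10.89 and 11.20 in wild-type by its brightest probe A_51_P212420. It differed by -0.28 ± 0.29 (SE; limma adjusted p = 0.561) with 3 of the 4 mutant pools within the wild-type range, and turned to 0.03 and 0.04 after 75th percentile scaling and centring. The other Lama4 probes differed by -0.35 and -0.33. Lama5, the α chain most widespread in epithelia, read 11.68, 11.87, 12.02 and 12.14 against 11.81, 12.07, 12.49 and 12.36, lower within each number by 0.13 to 0.47, a difference of -0.26 ± 0.21 (SE; limma adjusted p = 0.462). It turned to 0.13 after 75th percentile scaling and 0.07 after centring. Lama2, the chain of muscle, differed by -0.19 and -0.35 by its 2 probes, the former above 0 after quantile normalization and centring.

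Of the β chains, Lamb2 (A_51_P248044, chr9:108392189-108392248, mm9) read 10.90, 11.30, 9.46 and 11.02 in Tbx5-/+ and 11.53, 11.84, 11.50 and 11.83 in wild-type. The groups did not overlap, and Tbx5-/+ 6 was again far below the rest. The difference was -1.01 ± 0.36 (SE; 95% interval -1.82 to -0.19; limma adjusted p = 0.193, and 0.0523 with the replicate block; exact permutation p = 0.0286), and -0.60 without Tbx5-/+ 6. Lamb1-1, the β chain usual in embryonic laminins and outside the name rule, read 10.88, 11.47, 11.77 and 11.44 against 11.19, 10.96, 11.39 and 11.23, a difference of 0.20 ± 0.22 (SE; limma adjusted p = 0.601) with Tbx5-/+ 1 the lowest of all. Lamb3, an epithelial chain, read 7.03, 6.57, 7.46 and 6.97 against 6.96, 6.49, 7.43 and 6.52, higher within each number by 0.03 to 0.45, with a difference of 0.16 ± 0.27 (SE; 95% interval -0.45 to 0.77; limma adjusted p = 0.736) that turned to -0.04 after 75th percentile scaling.

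Lamc1, the γ chain shared by most laminins, read 13.68, 13.98, 13.34 and 13.62 in Tbx5-/+ and 14.02, 14.13, 13.96 and 14.10 in wild-type. Its wild-type values were tight (SD 0.08), Tbx5-/+ 5 lay just above the lowest of them and the other 3 below, and the difference was -0.40 ± 0.19 (SE; 95% interval -0.82 to 0.02; limma adjusted p = 0.244). Itga3, the epithelial chain described above, had its high values in Tbx5-/+ 1, where the foregut endoderm markers also had their highest mean of the mutant group (12.22 against 11.76 to 11.92). Of these markers Cdh1, Epcam, Krt8 and Cldn6 were highest of the mutant group there. Foxa1 (7.65) and Foxa2 (12.26) were instead the lowest of all 8 arrays in that pool. Wild-type 1 had a higher foregut mean (12.66) with lower Itga3 values, and the neural tube markers (4 of 5 tested) had their highest mean of all 8 arrays in Tbx5-/+ 1 (11.45, against 11.41 in wild-type 5 and 9.78 to 10.41 in the others). The part of either tissue in the Itga3 values was not tested.

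Pools of the same embryo number were also compared with each other. Within numbers 1, 5, 6 and 7, the median difference of the 32 member probes was -0.39, -0.15, -0.79 and -0.45, against -0.29, -0.08, -0.22 and -0.17 over all probes tested. Number 6 thus had the largest shift of the members and number 5 the smallest. Tbx5-/+ 6 was the lowest of the 8 arrays for 19 of the 32 member probes (38.2% of all probes) and Tbx5-/+ 1 for 8. The endothelium and pSHF markers also had their lowest means in Tbx5-/+ 6 (9.98 and 9.05), and their part in the low member values was not tested. By sign, 13 member probes were lower within all 4 numbers (36.3% of all probes) and 2, Itga11 and Lamb3, were higher (3.81%). On slide 1 the differences of Itga4, Itga6 A_52_P81270, Lama1, Itgb1 and Lamb2 were -1.48, -0.91, -0.77, -0.68 and -0.58, and on slide 2 -1.84, -1.10, -1.14, -1.11 and -1.43. These 5 were chosen because their groups did not overlap, which fixes the direction on both slides. Each difference was larger on slide 2.

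The proteins around integrins were taken as lists of 36 genes with 70 probes, of which 48 probes of 35 genes were tested. None was called by limma without a block (0% of all probes), and 10 probes of 9 genes did not overlap between the groups, all lower (8.98% of all probes). Of the 30 probes for proteins that tie integrins to actin, 7 did not overlap: both probes of Fermt2, the kindlin of mesenchyme (-0.78 and -0.81), Parvb (-0.99), Lims1 A_52_P222725 (-1.42) and Lims2 (-0.46), adaptors of the integrin-linked kinase complex, the actin cross-linker Actn1 (-0.74), and Tln2 A_51_P223132, a talin (-1.70). Of the 4 mutant pools, 1 was marked above background for that Tln2 probe and 3 for that Lims1 probe, so both passed through the wild-type group alone. The kinase itself, Ilk, differed by -0.18 and the other talin gene, Tln1, by -0.30 to -0.67 over 3 probes, with overlap. The other Tln2 probe tested differed by only -0.25 and the other Lims1 probe tested by -0.48, both with overlap, and the highest of the list was Itgb1bp1 at 0.45, again with overlap. With the replicate block 5 of the 30 passed, all lower, as did 10.7% of all probes.

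Of the 7 probes for laminin partners, Nid2, a nidogen that links laminin to collagen networks, did not overlap (-0.57), whereas Nid1 differed by 0.13, Agrn by -0.19 and Hspg2 by -0.32. The dystroglycan gene Dag1 differed by -0.91 and -0.47 by its 2 probes and passed by the former with the replicate block (adjusted p = 0.0476). Of the 11 probes for other integrin ligands, vitronectin, Vtn (-0.90), and tenascin C, Tnc (-0.79), did not overlap. Above 0 were 3 of the 11, all with overlap: Spp1 (0.63), Fbn1 A_51_P467224 (0.42) and Mfge8 (0.13). Fibronectin, Fn1, differed by -1.05 and -1.89 by its 2 probes, the latter with an SD of 1.71 within Tbx5-/+, and overlapped with wild-type. That latter probe, like the Dag1 probe of -0.47, was marked above background on 3 of the 4 Tbx5-/+ arrays. Both thus passed the filter through the wild-type group alone. Both Fn1 probes and Tnc passed with the replicate block (adjusted p = 0.0449, 0.0424 and 0.0464), which called 10.7% of all probes lower. Vcam1, the other ligand of Itga4, differed by -0.11. The median difference was -0.45 for the adhesion proteins, -0.47 for the laminin partners and -0.79 for the other ligands, against -0.35 for the integrins and laminins and -0.19 for all probes.

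**Figure D4:**
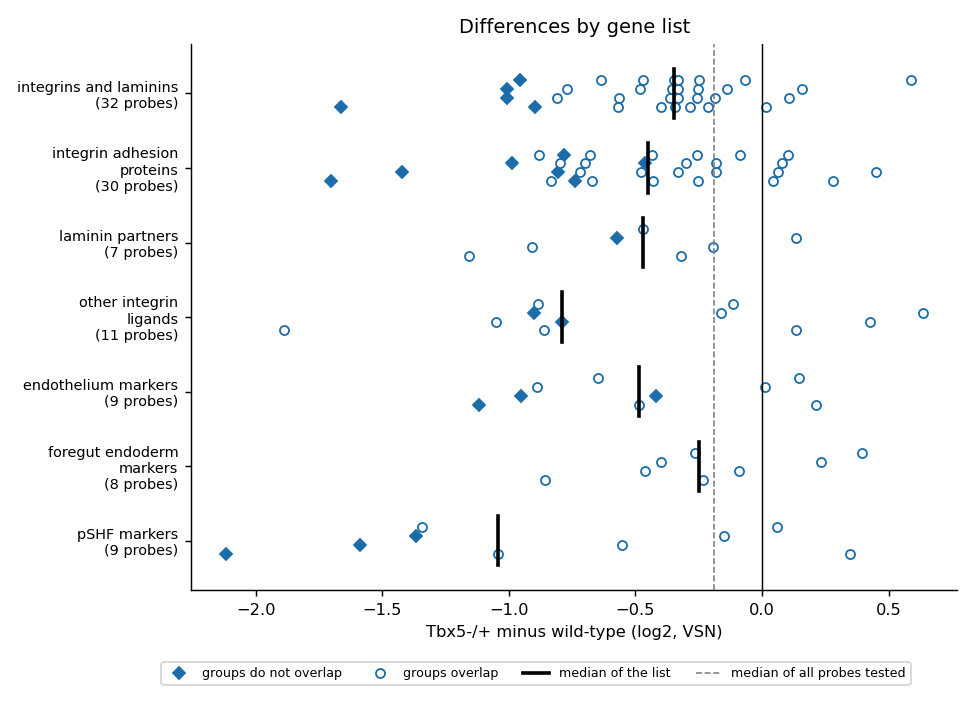
Difference in log2 level, Tbx5-/+ minus wild-type (horizontal axis), of each probe tested in 7 gene lists, with the list's median as a bar; filled diamonds are probes whose groups did not overlap, and the dashed line is the median of all probes tested. The median was -0.35 for integrins and laminins, -0.79 for other integrin ligands and -1.04 for the pSHF markers, Tbx5 included.

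The scaling between arrays set the sign of the members with small differences but not of those farthest from the rest. Itga4, Itga6 A_52_P81270, Itgb1, Lama1 and Lamb2 stayed below 0 under all 5 scalings, and Itga11 above it. Their ranges were -1.98 to -1.18, -1.03 to -0.66, -0.90 to -0.55, -0.99 to -0.57, -1.03 to -0.66 and 0.57 to 0.97. The deposited values nearly equal those of VSN, and centring moves all differences alike. Neither of these could turn the sign of differences this large. Members with small differences crossed 0 where the whole array moved: the median of all probes tested was -0.19 under VSN, -0.21 in the deposited values, -0.016 after quantile normalization, 0.10 after 75th percentile scaling and 0.13 after centring. The number of members that did not overlap, 5 under VSN (8.98% of all probes, lower) and in the deposited values, was 4 after quantile normalization, 1 after 75th percentile scaling and 0 after centring. The share over all probes was not counted under the other scalings. A loss in the members thus cannot be told from one over the whole array.

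**Figure D5:**
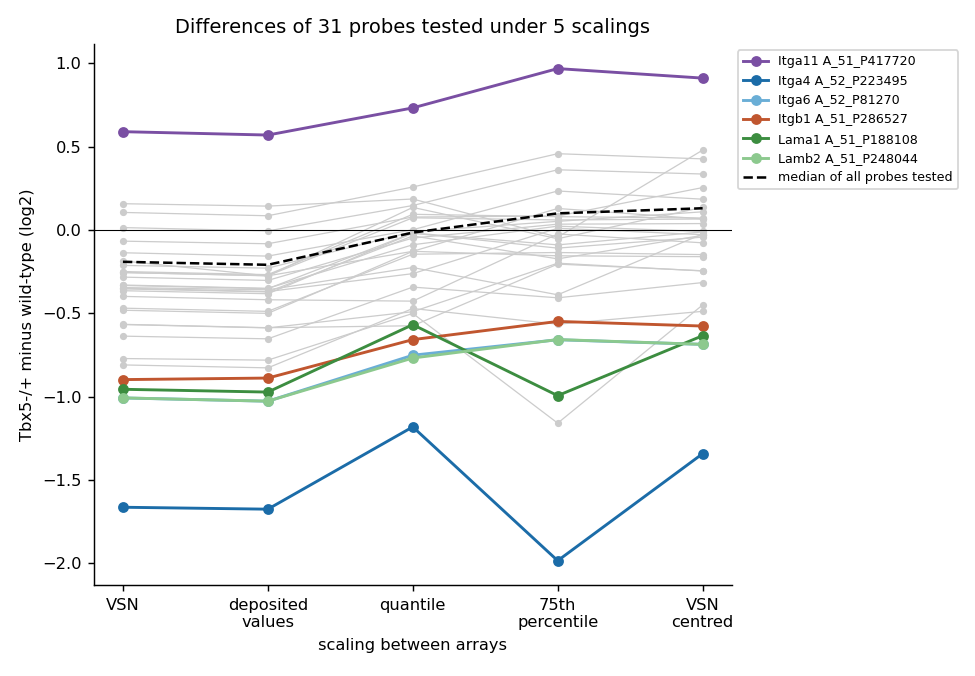
Difference in log2 level, Tbx5-/+ minus wild-type (vertical axis), of 31 member probes under 5 scalings between arrays (horizontal axis); 6 probes are coloured and the dashed line is the median of all probes tested, which ran from -0.21 to 0.13. Itga4 stayed lowest and Itga11 highest under each scaling shown.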

How the data were processed

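RNA of 8 pSHF pools (4 Tbx5-/+, 4 wild-type) was hybridized to 1-color Agilent whole mouse genome arrays. Linear intensity values per spot (mean signal, median local background, processed signal) were deposited as written by Agilent Feature Extraction 10.5.1.1. A second deposited table gives log2 values after background correction and VSN by the authors for some of the probes. The methods name filters on signal quality, variability and known genes for the probes tested, without saying which of them that table carries. The background was subtracted from the mean signal, spots marked as outliers were left out, repeat spots of a probe were averaged, and VSN was programmed in R 4.3.3 (90% of probes kept in each of 7 iterations). Its values correlated with the deposited ones by at least 0.9999 on every array. All 78 probe names matched RefSeq, 51 by accession and 27 by symbol.

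Probes marked well above background throughout 1 group or both were tested. Groups were compared with limma 3.58.1 (two-sided, no covariate), with p adjusted by Benjamini-Hochberg over 20028 probes and a threshold of 0.05. For single probes the 70 possible assignments of arrays to groups also gave an exact permutation p, which cannot go below 0.0286. Precision is limited by the number of arrays. The pipeline was tested on simulated data. Alternatives changed the scaling between arrays, the filter on dim probes or the blocks, weighted the arrays, or left out each array in turn. Others used an ordinary unpaired t-test, or kept only named probes with the larger inter-quartile ranges, a filter taken from the study's methods. The replicate numbers are the embryo numbers in the labels. Deviations from the group mean correlated between same-numbered pools by 0.44, 0.40, 0.59 and 0.14 (numbers 1, 5, 6 and 7). Between other numbers the correlations ran from -0.60 to 0.37, the latter for Tbx5-/+ 7 with wild-type 6. The numbers were taken to pair the samples in the replicate block, a choice that rests on these same data and is weak for number 7. No column of per-array values was left out of use for want of a sample.

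Named genes were all member genes with a probe tested, except 1 gene that is not reported here and counts only in the totals. Values by array are given for probes without overlap, the 3 genes of lowest p among the lower and among the higher ones, and the brightest probe of 11 chains that the design listed; array values of a few other probes are given as well, chosen after they were seen. The members, the lists of companion and marker genes and the alternatives were chosen with earlier results of these data known. Python 3.11.15, pandas 2.3.3 and matplotlib 3.10.9 were used for tables and figures.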

Additional observations from a re-analysis of the deposited data

Results flagged for a closer look

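Within a group of 4 pools, 7 of the 64 sets of values of the member probes tested held a pool far from the other 3 (a gap to its nearest neighbour that exceeded Dixon's 95% critical value as a share of the whole range, which chance gives in about 1 of 20 sets). Tbx5-/+ 1 was the low pool for Itga11 (9.21, the others 11.42 to 11.82), for both Itga8 probes (10.05 by A_51_P309917, the others 11.70 to 11.90, and 10.26 by A_51_P309920, the others 12.06 to 12.30) and for Lama2 A_51_P191865 (7.01, the others 8.55 to 8.81). Wild-type 1 was likewise low for Lama2 A_51_P191865 (7.64, the others 8.72 to 8.76) and was the high pool for Itgb1 A_52_P351816 (10.16, the others 9.19 to 9.35). Tbx5-/+ 6 was low for Itgb5 (12.81, the others 13.78 to 13.95). All but the Itgb5 value lay in pools numbered 1. The primitive erythrocyte markers (5 of 6 tested) averaged 12.20 and 12.24 in Tbx5-/+ 1 and wild-type 1, against 13.48 to 14.66 in the other pools, and the neural tube markers had their highest mean in Tbx5-/+ 1 (11.45). All 7 were left in the comparisons, and their causes were not tested.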

How the results depend on the processing

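Members called by limma numbered 0 under VSN and under most alternatives, but 1 (Itga4) when only the more variable named probes were kept, 12 genes with array weights (which called 33.4% of all probes lower and 16.5% higher) and 3 (Itga4, Itga6 and Lama1) with the replicate block. With each array omitted in turn the number was 0 to 5 member genes: 5 without Tbx5-/+ 1 (Itga3, Itga4, Itga6 and Lama1 among them, with 12.2% of all probes called lower and 7.03% higher) and 1 (Itga4) without wild-type 1. Member probes lower at an unadjusted p under 0.05, 6 under VSN (18.5% of all probes), numbered 3 after 75th percentile scaling (8.61% of all) and 3 after centring (6.65%). They numbered 11 with the replicate block (29.6% of all probes), 15 with array weights (37.5%) and 4 to 10 with 1 array left out (10.2% to 27.2%). Those higher, 0 under VSN (3.38% of all probes), numbered 2 without the filter on dim probes (3.18% of all) and 1 (Itga11) with the replicate block (5.27%). With 1 array left out they numbered 0 to 1 (0.859% to 14.6% of all probes). Non-overlapping lower probes, 5 under VSN (8.98% of all probes), numbered 1 after 75th percentile scaling, 0 after centring and 5 to 9 with 1 array left out, and higher ones 0 to 2. The shares over all probes were not counted in those other settings, so these counts are not a result about the members. With 1 array left out fewer values need to be apart, so those counts cannot be set against 5. An ordinary unpaired t-test called 4 member probes lower at the unadjusted threshold (14% of all probes) and 0 after adjustment (0% of all). The permutation-based test of the study's methods was not rerun. The median of the members relative to all probes was -0.16 under VSN and 0.11 with that filter on variable probes. The replicate block changed no other member call, and the slide block none.

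Differences of the genes reported here that changed sign did so without a call. After 75th percentile scaling these were Lama4 A_51_P212420 (0.035), Lamb3 (-0.043), Itgb3 A_51_P237893 (0.052) and A_52_P553890 (0.023), Itga6 A_51_P262401 (0.010), Itgb7 (0.084), Itgb4 A_51_P408382 (0.060), Lama5 (0.13), Itga3 A_52_P301804 (0.080) and Itga9 A_52_P542645 (0.23). After quantile normalization they were Lama2 A_51_P191865 (0.14), Itgb7 (0.078), Itgb4 A_51_P408382 (0.073), Itga3 A_52_P301804 (0.094) and Itga9 A_52_P542645 (0.0015). After centring they were Lama2 A_51_P191865 (0.14), Lama4 A_51_P212420 (0.038), Itgb3 A_51_P237893 (0.11), Itgb7 (0.25), Itgb4 A_51_P408382 (0.066), Lama5 (0.066), Itga3 A_52_P301804 (0.072) and Itga9 A_52_P542645 (0.18). Itga8 A_51_P309920 became -0.0058 in the deposited values. With array weights Itgb3 A_51_P237893 became 0.46, Itga6 A_51_P262401 0.056, Itgb7 0.12 and Itgav 0.019. With 1 array left out, the differences that changed sign ranged from -0.46 to 0.24 for Lama2 A_51_P191865 and from -0.18 to 0.16 for Itgb7 (both above 0 only without Tbx5-/+ 1), from -0.66 to 0.058 for Itga3 A_52_P301804 (above 0 only without Tbx5-/+ 6), and from -0.073 to 0.54 and -0.19 to 0.48 for Itga8 A_51_P309917 and A_51_P309920 (below 0 without Tbx5-/+ 5, 6 or 7 or wild-type 1). Differences between probes of 1 gene changed sign for Itgb1 (-0.017 after 75th percentile scaling) and for the Lama4 probes against A_51_P212420 (0.013 for A_51_P212427 and 0.030 for A_52_P7554 after quantile normalization). With 1 array left out they ranged from -0.53 to 0.096 for Lama2, from -0.22 to 0.031 for Lama4 A_51_P212427 and from -0.079 to 0.39 for Itgb3. The cause was not tested.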
